A study of Mus musculus with 8 samples.

Results

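Tumour necrosis factor (TNF) receptor signalling and the genes driven by the transcription factor NF-kB were followed in mouse soleus muscle through 40 genes. They were the genes whose name on the array equals 1 of 40 listed names, among 37008 gene names on the array, and this rule uses no measured value. Together they had 82 probes, 70 of which were kept as well above background on at least 4 of 8 arrays, and 37 of the 40 genes could be tested among 22271 tested genes. Samples came from male C57BL/6J mice that started at 8 weeks of age, ate High-fat diet 32 throughout and were aged 14 weeks at sampling. The P. gingivalis group (n = 4) received Porphyromonas gingivalis, a bacterium of human periodontitis, in 100 µL of saline through a feeding needle over 6 weeks, and the saline group (n = 4) received saline alone. Every mouse, controls included, was therefore on the high-fat diet, and the comparison asks how muscle expression differs with the bacterium under that diet. Each sample was read on 1 single-colour Agilent array from 200 ng of total RNA. Whether the 4 arrays of a group stand for 4 mice is not stated in the labels, so a p-value here speaks only of spread among these samples, which may be technical.

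Groups were taken from the sample records. In the authors' deposited table the column names exchange the 2 groups, with 8 of 8 columns correlating best with the array of the other group and the same number, so every direction given here would turn if the table's names were the right ones. The saline arrays lay on 1 side of the slide and the P. gingivalis arrays on the other, and side and group cannot be told apart. Between 32836 and 36769 spots were well above background on the saline arrays and between 37525 and 38068 on the P. gingivalis arrays. On the log2 scale used below, the lowest value well above background was -4.73, -4.95, -4.49 and -5.23 in saline 1 to 4. In P. gingivalis 1 to 4 it was -5.43, -5.48, -5.64 and -5.66, so the floor for dim probes differed with the group. All 15 markers of muscle fibres, among them the slow myosin Myh7, passed the background filter.

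TNF binds the receptors encoded by Tnfrsf1a and Tnfrsf1b, which gather adaptor proteins, ubiquitin ligases and the kinase Ripk1 at the membrane. This complex switches on the IkB kinase, which marks the IkB inhibitors for destruction and frees NF-kB dimers to enter the nucleus. NF-kB then induces adhesion molecules and cytokines along with its own inhibitors, such as IkB alpha and A20, which close the loop. In skeletal muscle the pathway is known for its part in inflammation, insulin resistance and wasting.

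NF-kB acts through kappaB elements, so the promoters of the members were searched for the kappaB consensus on both strands, in the RefSeq windows of 300 bases that run from 250 before to 50 after each gene's start in build GRCm38.p6. A window was held for 32 of the 40 genes. None was held for Ikbkb, Vcam1, Cd83, Map3k8, Relb, Nfkb1, Tradd and Plau, which were not searched. The consensus was present for 12 of these 32, or 37.5%, compared with 9.55% of all 27025 genes with a window. Known NF-kB targets are on the list by choice, so the higher share describes the list and is not a finding of these data. The 12 were Csf1, Bcl3, Tnfaip3, Rel, Irf1, Tnip1, Nfkbia, Tnfaip2, Sod2, Ier3, Nfkbie and Nfkb2. The 150 bases before the start are given for the 5 inhibitor or adhesion and vessel genes with a match there, since these genes carry the feedback and the vessel response of the pathway. Capitals mark the consensus matches, and each stretch reads 5′ to 3′ on the gene's strand.
Nfkbie: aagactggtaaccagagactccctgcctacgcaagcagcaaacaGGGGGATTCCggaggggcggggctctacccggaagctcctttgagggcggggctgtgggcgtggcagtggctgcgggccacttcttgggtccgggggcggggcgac
Tnfaip3: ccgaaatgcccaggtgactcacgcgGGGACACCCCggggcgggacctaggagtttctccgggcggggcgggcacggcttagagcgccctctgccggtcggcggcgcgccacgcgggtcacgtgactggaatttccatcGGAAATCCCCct
Tnip1: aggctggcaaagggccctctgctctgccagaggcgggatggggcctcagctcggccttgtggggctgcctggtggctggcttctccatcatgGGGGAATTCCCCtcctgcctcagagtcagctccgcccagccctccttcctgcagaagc
Tnfaip2: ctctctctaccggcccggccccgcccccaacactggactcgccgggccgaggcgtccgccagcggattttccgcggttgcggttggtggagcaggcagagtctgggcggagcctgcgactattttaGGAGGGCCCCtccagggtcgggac
Nfkbia: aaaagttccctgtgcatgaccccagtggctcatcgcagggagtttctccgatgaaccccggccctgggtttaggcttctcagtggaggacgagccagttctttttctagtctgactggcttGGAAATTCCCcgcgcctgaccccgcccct
The Nfkbie stretch is chr17:45555550-45555699 (+ strand) and has its match 106 bases before the start. For Tnfaip3 the stretch is chr10:19015411-19015560 (- strand), with matches 125 and 12 bases before the start. Tnip1 lies at chr11:54962941-54963090 (- strand) and holds 3 overlapping matches that begin 58, 57 and 56 bases before the start. Tnfaip2 is at chr12:111442511-111442660 (+ strand) with a match at 24 bases, and Nfkbia at chr12:55492648-55492797 (- strand) with a match at 29 bases. A match is a stretch of letters and not a measured binding site. In the array comparison, Nfkbia (0.11) and Sod2 (0.078) lay above 0 among the 12 genes with a match. The others lay below it, down to -0.80 for Bcl3, as did 25 of all 37 tested members and 52.3% of all genes. Under median centring Tnfaip2, Nfkb2 and Rel also lay above 0.

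Values below are log2 of the processed signal minus the array's 75th percentile, and differences are the P. gingivalis mean minus the saline mean on that scale, with the standard error of limma's fit. No member passed an adjusted p under 0.05 in limma, a threshold that 26 of 22271 genes (0.117%) passed. At an unadjusted p under 0.05, 16 of the 37 tested members (43.2%) were counted, compared with 19.7% of all genes tested. Of these 16, 11 were lower in P. gingivalis, which is 29.7% of the 37 beside 9.68% of all genes. The other 5 were higher, which is 13.5% of the 37 beside 10.0% of all genes. The groups did not overlap for 10 members, against 13.4% of all genes, with 6 lower (6.10% of all genes) and 4 higher (7.34%). The 6 were Traf2, Tnfaip3, Tnip1, Rela, Chuk and Icam1, and the 4 were Tnfrsf1b, Birc2, Birc3 and Ikbkg. In all, 25 members had a difference below 0, compared with 52.3% of all genes, and the median of the 37 was -0.15 beside -0.011 for all genes, a sign that turned to 0.0032 for the members under median centring, which moved the median of all genes to 0.14. With saline 1, 2, 3 or 4 left out the 26 genes past the threshold became 5, 2, 7 or 3, with P. gingivalis 1, 2, 3 or 4 left out they became 2, 2, 3 or 3, and the 10 members without overlap became 17 without saline 3 (20.9% of all genes) and 15 without P. gingivalis 4 (19.1% of all genes). With the mean of all kept probes of a gene in place of its brightest one, 2 members did not overlap, beside 12.4% of all genes, and 9 were counted at the unadjusted threshold, beside 18.4% of all genes. Under median centring 13 members were counted at the unadjusted threshold, beside 32.6% of all genes, and 7 did not overlap, beside 23.2% of all genes.

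**Figure D1:**
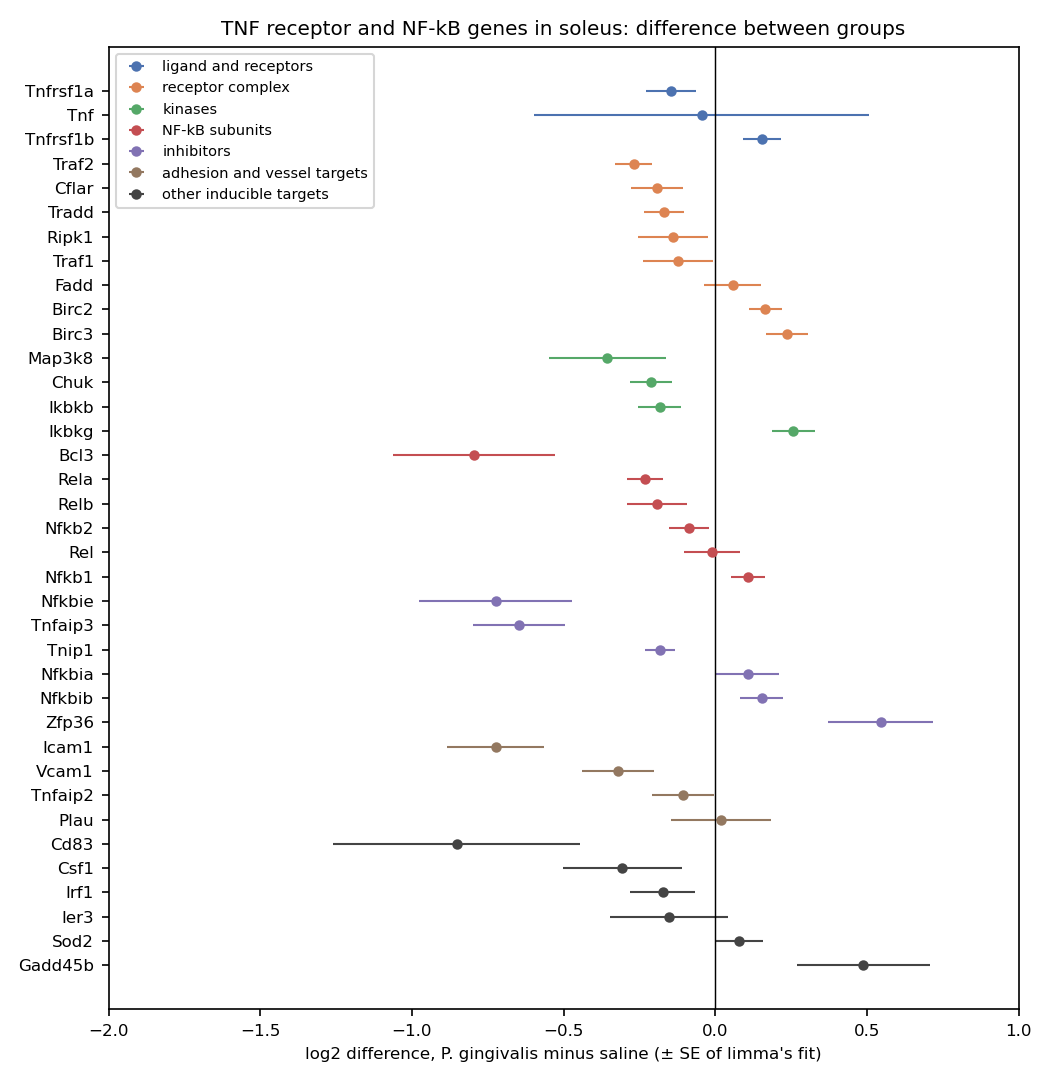
Log2 difference (P. gingivalis minus saline, x axis) of the 37 tested genes, ordered by role, with bars of 1 standard error of limma's fit and colour by role. The differences run from -0.85 for Cd83 to 0.55 for Zfp36, 25 of them lie below 0 (18 under median centring), and none passed the adjusted threshold.

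The ligand and its receptors showed small differences. Tnf, the ligand itself, stood at -1.50, -2.24, -2.15 and 0.42 in saline 1 to 4 and -1.36, -1.70, -1.51 and -1.08 in P. gingivalis 1 to 4. Saline 4 lay far above the other 7 arrays, whose values interleaved between the groups. The difference for Tnf was -0.045 ± 0.55 (limma, adjusted p = 0.972), and without saline 4 it was 0.55. A second Tnf probe, to the same transcript, did not rise well above background on any of the arrays. Tnfrsf1a, the receptor found on most cells and the one with a death domain, stood at 2.54, 2.41, 2.43 and 2.32 in saline 1 to 4 and 2.37, 2.22, 2.41 and 2.12 in P. gingivalis 1 to 4. The groups overlapped, with the lowest value in P. gingivalis 4, and the difference was -0.15 ± 0.084 (limma, adjusted p = 0.375), against 0.11 ± 0.097 at its other kept probe. Tnfrsf1b, the receptor of immune and endothelial cells, stood at -1.48, -1.45, -1.49 and -1.47 in saline 1 to 4 and -1.23, -1.23, -1.37 and -1.43 in P. gingivalis 1 to 4. All 4 P. gingivalis values lay above the saline values, though P. gingivalis 4 by a narrow margin. Its difference was 0.15 ± 0.062 (limma, adjusted p = 0.229), while its other kept probe gave -0.14 ± 0.19. The median of these 3 genes was -0.045, and 0.10 under median centring. In whole muscle, fewer cells of a type and less RNA per cell cannot be told apart for these or any other genes here.

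In the receptor complex, 5 of 8 genes had differences below 0, with a median of -0.13 that became 0.017 under median centring. At the unadjusted threshold 4 of the 8 were counted, 2 in each direction, beside 19.7% of all genes. Traf2, the adaptor that brings ubiquitin ligases to both receptors, stood at 2.30, 2.26, 2.29 and 2.21 in saline 1 to 4 and 2.03, 2.09, 1.99 and 1.87 in P. gingivalis 1 to 4. The groups did not overlap, and the P. gingivalis values were all under the lowest saline value. Its difference of -0.27 ± 0.062 was 1.20-fold lower (limma, adjusted p = 0.0897). In build mm9 this probe is on chromosome 2 from 25374386 to 25374445, and the other Traf2 probe gave -0.00030 ± 0.063. Birc2 and Birc3 encode cIAP1 and cIAP2, the ubiquitin ligases that TRAF2 carries to the receptor. Birc2 stood at 0.11, 0.038, 0.19 and 0.15 in saline 1 to 4 and 0.24, 0.26, 0.33 and 0.31 in P. gingivalis 1 to 4. Its values were separate between the groups, with a difference of 0.16 ± 0.055 (limma, adjusted p = 0.169), and its other probe, which passed the filter through the P. gingivalis arrays (well above background on 4 of them and on 1 saline array), gives no independent value. Birc3 stood at -3.56, -3.51, -3.67 and -3.57 in saline 1 to 4 and -3.32, -3.31, -3.50 and -3.24 in P. gingivalis 1 to 4. The P. gingivalis values were again the higher ones, with a difference of 0.24 ± 0.070 (limma, adjusted p = 0.136). Its 2 other kept probes had the opposite sign, at -0.33 and -1.45. The latter rests on 1 array, since it read 1.49, -4.58, -4.53 and -4.68 in saline 1 to 4 and -4.28, -4.73, -4.59 and -4.51 in P. gingivalis 1 to 4. The sign for Birc3 therefore depends on the probe. With normexp background correction, where the brightest probe was chosen anew, the gene was at -1.10. Of its kept probes, only the one that rests on 1 array had so low a value at the main scaling.

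Tradd, the adaptor that docks on the death domain of the receptor, stood at -0.067, -0.015, -0.15 and -0.024 in saline 1 to 4 and -0.34, -0.24, -0.11 and -0.25 in P. gingivalis 1 to 4. Its groups overlapped, with a difference of -0.17 ± 0.065 (limma, adjusted p = 0.212). Traf1, an adaptor that is itself induced by NF-kB, ran from -3.45 to -3.13 in saline and from -3.61 to -3.22 in P. gingivalis, with a difference of -0.12 ± 0.12 that turned to 0.012 under quantile normalization and 0.025 under median centring. Ripk1, the kinase that stands between survival and death signals, had a difference of -0.14 ± 0.11 (limma, adjusted p = 0.527). Another Ripk1 probe had the opposite sign, 0.060. The remaining Ripk1 probe, at 0.26, was well above background on 2 saline and 4 P. gingivalis arrays. It passed the filter through the P. gingivalis arrays and gives no independent value. Cflar encodes c-FLIP, which holds back caspase-8, and Fadd the adaptor that recruits that caspase. The difference for Cflar was -0.19 ± 0.086 (limma, adjusted p = 0.263), with its 5 probes ranging from -0.31 to 0.32, and that for Fadd 0.057 ± 0.095 (limma, adjusted p = 0.769). None of these 5 genes had separate groups.

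The IkB kinase is built of 2 catalytic subunits, encoded by Chuk and Ikbkb, and a regulatory subunit, NEMO, encoded by Ikbkg. The catalytic subunits were lower in P. gingivalis and the regulatory one higher at the brightest probe of each, and all 3 missed the adjusted threshold. With Map3k8, the median of the 4 kinases was -0.20, and -0.049 under median centring. Chuk stood at 2.60, 2.59, 2.73 and 2.58 in saline 1 to 4 and 2.54, 2.41, 2.42 and 2.29 in P. gingivalis 1 to 4. Its groups did not overlap, with saline 3 apart above the rest, and the difference was -0.21 ± 0.069 (limma, adjusted p = 0.160). Ikbkb stood at 0.088, 0.31, 0.31 and 0.33 in saline 1 to 4 and 0.048, 0.14, -0.0039 and 0.12 in P. gingivalis 1 to 4. Saline 1 lay within the P. gingivalis range while the other saline arrays were above it, and the difference was -0.18 ± 0.071 (limma, adjusted p = 0.215). Ikbkg stood at -0.85, -0.88, -0.71 and -0.87 in saline 1 to 4 and -0.69, -0.50, -0.47 and -0.61 in P. gingivalis 1 to 4. Every P. gingivalis value was above the saline values, with a difference of 0.26 ± 0.070 (limma, adjusted p = 0.119). Ikbkb kept its sign at 1 of its other probes, -0.35 ± 0.12. Its remaining kept probe, at 0.61, was well above background on 2 saline and 4 P. gingivalis arrays. That probe passed the filter through the P. gingivalis arrays and gives no independent value. Chuk gave 0.045 at its second probe, and Ikbkg 0.0021 and -0.054 at its others. Map3k8, which encodes the kinase Tpl2 that also acts on the ERK pathway, ran between -2.86 to -2.02 in saline and -3.00 to -2.66 in P. gingivalis. Its groups overlapped, with a difference of -0.36 ± 0.19 (limma, adjusted p = 0.351) and the same sign at its other probe, -0.54.

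**Figure D2:**
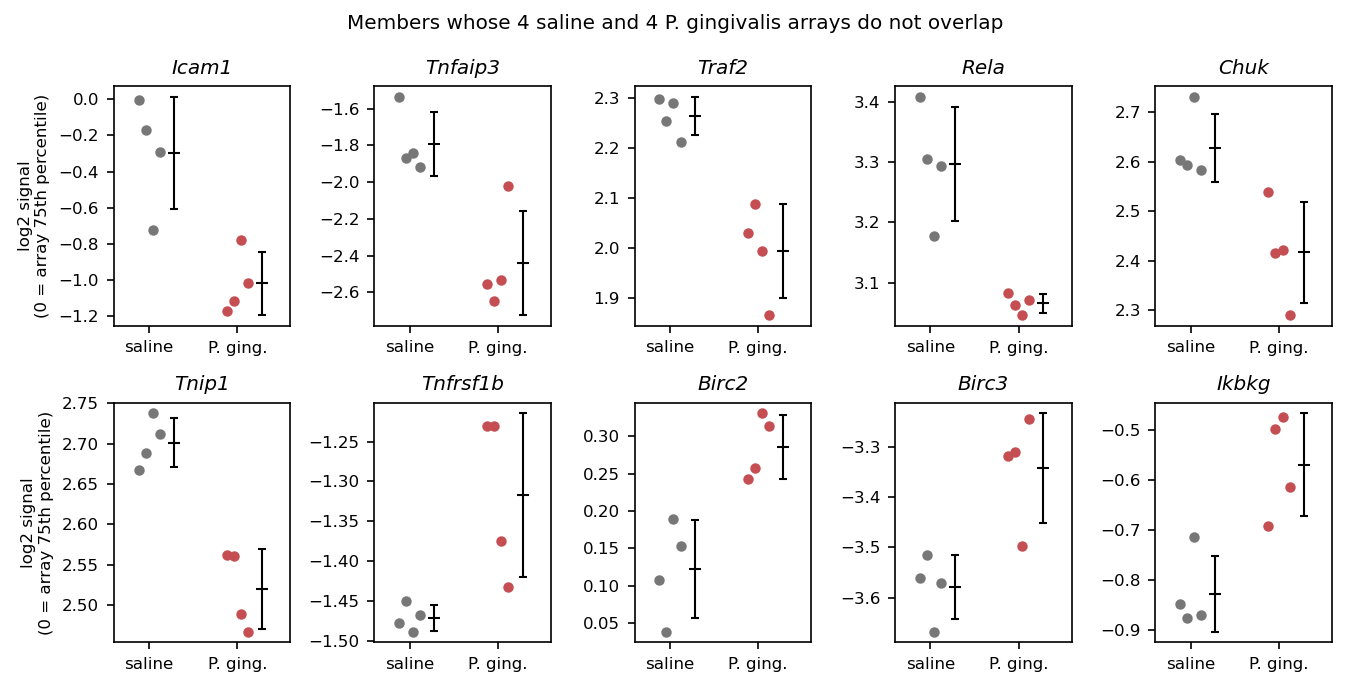
Value on each array (log2 signal minus the array's 75th percentile, y axis, a separate scale per panel) of the 10 genes whose saline and P. gingivalis groups did not overlap, 1 point per array, with each group's mean and a bar of ± 1 SD beside its points. The widest gap between means is -0.72 for Icam1 and the narrowest 0.15 for Tnfrsf1b, and the separation was seen for 2 genes with the mean of all kept probes.

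Among the NF-kB subunits and Bcl3, 5 of 6 genes had differences below 0, with a median of -0.14 that became 0.010 under median centring. Rela encodes p65, the subunit that carries the activation domain of the classical dimer. It stood at 3.41, 3.31, 3.18 and 3.29 in saline 1 to 4 and 3.08, 3.06, 3.05 and 3.07 in P. gingivalis 1 to 4. The P. gingivalis arrays lay close together and below all saline arrays, with a difference of -0.23 ± 0.060 (limma, adjusted p = 0.111) at a probe on chromosome 19 from 5648070 to 5648129 (mm9). Its other probe gave 0.014 ± 0.13. Bcl3, an IkB-like protein that acts in the nucleus with p50 or p52, stood at -0.39, -0.81, -1.58 and -1.25 in saline 1 to 4 and -2.20, -1.81, -1.43 and -1.76 in P. gingivalis 1 to 4. Saline 1 and 2 were well above all P. gingivalis arrays, and saline 3 was below P. gingivalis 3, so the groups overlapped. Its difference of -0.80 ± 0.27 was 1.74-fold lower (limma, adjusted p = 0.171), from 1 probe. Nfkb1, which encodes the p50 precursor, differed by 0.11 ± 0.056 (limma, adjusted p = 0.329), with -0.12 and 0.0093 at its other probes. Nfkb2, the p52 precursor of the alternative route, differed by -0.087 ± 0.067 (limma, adjusted p = 0.502) and by 0.062 under median centring. Relb, the partner of p52, differed by -0.19 ± 0.099 (limma, adjusted p = 0.327), with -0.29 and 0.12 at its others. For Rel, which encodes c-Rel of lymphoid cells, the difference was -0.0099 ± 0.092 (limma, adjusted p = 0.964), and its sign turned with the scaling.

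The inhibitors were divided, with 3 of 6 on each side and a median of -0.038 (0.11 under median centring). Counted at the unadjusted threshold were 4 of the 6, beside 19.7% of all genes. Tnfaip3 encodes A20, the ubiquitin-editing enzyme that ends signalling at the receptor. It stood at -1.54, -1.87, -1.84 and -1.92 in saline 1 to 4 and -2.56, -2.65, -2.54 and -2.02 in P. gingivalis 1 to 4. All P. gingivalis values were under the saline values, P. gingivalis 4 nearest to them. With group means of -1.79 ± 0.17 (SD, n = 4) in saline and -2.44 ± 0.28 (SD, n = 4) in P. gingivalis, the difference was -0.65 ± 0.15, or 1.57-fold lower (limma, adjusted p = 0.0949). Its single probe is on chromosome 10 from 18720776 to 18720835 (mm9). Tnip1, which encodes the A20 partner ABIN-1, stood at 2.67, 2.69, 2.74 and 2.71 in saline 1 to 4 and 2.56, 2.56, 2.49 and 2.47 in P. gingivalis 1 to 4. These groups did not overlap either, with a difference of -0.18 ± 0.050 (limma, adjusted p = 0.119), while the other probe gave -0.0061 ± 0.20. That other probe was well above background on 2 saline and 4 P. gingivalis arrays. Nfkbie encodes IkB epsilon, an inhibitor induced late. It stood at -3.83, -3.61, -4.56 and -3.81 in saline 1 to 4 and -4.94, -4.58, -5.01 and -4.18 in P. gingivalis 1 to 4. P. gingivalis 4 lay above saline 3, and saline 3 was well under the other saline arrays. The difference for Nfkbie was -0.72 ± 0.25, or 1.65-fold lower (limma, adjusted p = 0.180). Its probe was well above background on 3 saline arrays and 4 P. gingivalis arrays, the other 36 tested members being so on all 8. The saline 3 value lay under the floor of that array, -4.49, whereas the floors of the P. gingivalis arrays ran from -5.66 to -5.43. The part of the floors in the difference of Nfkbie was not tested.

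Zfp36 lay on the other side of 0. It encodes tristetraprolin, which binds AU-rich elements and hastens the decay of Tnf and other cytokine messengers. It stood at 1.54, 1.51, 2.21 and 1.88 in saline 1 to 4 and 2.51, 2.37, 2.38 and 2.06 in P. gingivalis 1 to 4. Saline 3 was above P. gingivalis 4, and the other saline arrays were below all P. gingivalis arrays. The difference was 0.55 ± 0.17, or 1.46-fold higher (limma, adjusted p = 0.153), and ran from 0.45 to 0.69 when single arrays were left out. Nfkbia, the gene of IkB alpha, the inhibitor that NF-kB renews most quickly, ran over 3.84 to 4.22 in saline and 4.01 to 4.29 in P. gingivalis, a difference of 0.11 ± 0.10 (limma, adjusted p = 0.594). For Nfkbib, which encodes IkB beta, the difference was 0.15 ± 0.071 (limma, adjusted p = 0.283) and 0.22 at its other probe. Neither inhibitor had separate groups.

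Of the adhesion and vessel targets, 3 of the 4 tested were lower (2 under median centring), with a median of -0.21 (-0.065 under median centring). Sele, the endothelial selectin, gave no value well above background on the 8 arrays and was not tested. Icam1, the adhesion molecule by which leukocytes hold to endothelium, had the smallest adjusted p among the members. It stood at -0.0019, -0.17, -0.73 and -0.29 in saline 1 to 4 and -1.17, -1.12, -0.78 and -1.02 in P. gingivalis 1 to 4. Every P. gingivalis value was below every saline value, with saline 3 close to P. gingivalis 3. Group means were -0.30 ± 0.31 (SD, n = 4) in saline and -1.02 ± 0.17 (SD, n = 4) in P. gingivalis, and the difference of -0.72 ± 0.16 was 1.65-fold lower (limma, adjusted p = 0.0849). This probe is on chromosome 9 from 20833186 to 20833245 (mm9), and the other kept probe gave -0.31 ± 0.25. Icam1 passed the threshold with normexp background correction, with no filter on dim probes and with trended and robust variances. All genes past it in these 3 fits numbered 455, 5160 and 559, in place of 26 in the main fit. Of the 5160 with no filter, 4649 were lower and 511 higher. The adjusted p of Icam1 ran from 0.0289 to 0.237 over the alternatives. Vcam1, which holds monocytes and lymphocytes, stood at -1.26, -1.01, -1.28 and -1.05 in saline 1 to 4 and -1.66, -1.65, -1.34 and -1.25 in P. gingivalis 1 to 4. P. gingivalis 1 and 2 were lowest and P. gingivalis 4 lay within the saline range, with a difference of -0.32 ± 0.12 (limma, adjusted p = 0.197). Tnfaip2, a TNF-induced gene of endothelium, differed by -0.11 ± 0.10 (limma, adjusted p = 0.587) and by 0.042 under median centring. Plau encodes the plasminogen activator urokinase, and its difference was 0.018 ± 0.16 (limma, adjusted p = 0.962), which turned to -0.0020 under quantile normalization. Endothelial markers were lower beside these genes at this scaling and under quantile normalization, but 5 of 11 were lower under median centring. The summed linear level of the 11 was 72.5 to 76.9 in saline and 57.7 to 66.2 in P. gingivalis, without overlap, but overlapped under median centring (834 to 925 in saline and 732 to 857 in P. gingivalis). Egfl7 made up the greatest part of that sum. Of the 11, 8 were lower, with Kdr at -0.55 and Egfl7 at -0.40, and 3 were higher, with Pecam1 at 0.18, genes named after their values were seen. Their part in the differences of Icam1 and Vcam1 was not tested.

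None of the 6 other inducible targets that were tested was counted at the unadjusted threshold, which 19.7% of all genes passed. Of the 6, 4 were lower, with a median of -0.16 (-0.015 under median centring). Il1b, the inflammatory cytokine, was well above background on 1 of 8 arrays at its brightest probe, a saline one. At each of its other probes it was so on 1 P. gingivalis array. Ptgs2, the inducible prostaglandin synthase, was so on 1 P. gingivalis array, and neither gene was tested. Cd83, a surface protein of mature dendritic and B cells, had the widest difference of all members and a wide spread. It stood at -2.64, -1.53, -3.12 and -1.76 in saline 1 to 4 and -3.45, -3.71, -2.65 and -2.64 in P. gingivalis 1 to 4. P. gingivalis 1 and 2 were lowest and saline 2 and 4 highest, while the other 4 arrays interleaved. The difference was -0.85 ± 0.41 (limma, adjusted p = 0.293). Dendritic cell markers (4 of 5 tested, 3 lower) had a summed level of 0.110 to 0.400 in saline and 0.163 to 0.233 in P. gingivalis, and their part in the difference of Cd83 was not tested. Gadd45b, a stress-induced gene that restrains JNK signalling, stood at 1.48, 1.64, 1.39 and 1.57 in saline 1 to 4 and 2.67, 2.03, 1.75 and 1.58 in P. gingivalis 1 to 4. P. gingivalis 1 was far above the rest, and P. gingivalis 4 lay within the saline range, with a difference of 0.49 ± 0.22 (limma, adjusted p = 0.267). Csf1, the macrophage growth factor, differed by -0.31 ± 0.20 (limma, adjusted p = 0.421) and had the same sign at its 2 other probes, -0.28 and -0.26. Irf1, a transcription factor of the interferon response, differed by -0.17 ± 0.11 (limma, adjusted p = 0.411) and by 0.18 at its other probe. The differences were -0.15 ± 0.19 for Ier3, an early response gene, and 0.078 ± 0.080 for Sod2, the mitochondrial superoxide dismutase that NF-kB induces.

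**Figure D3:**
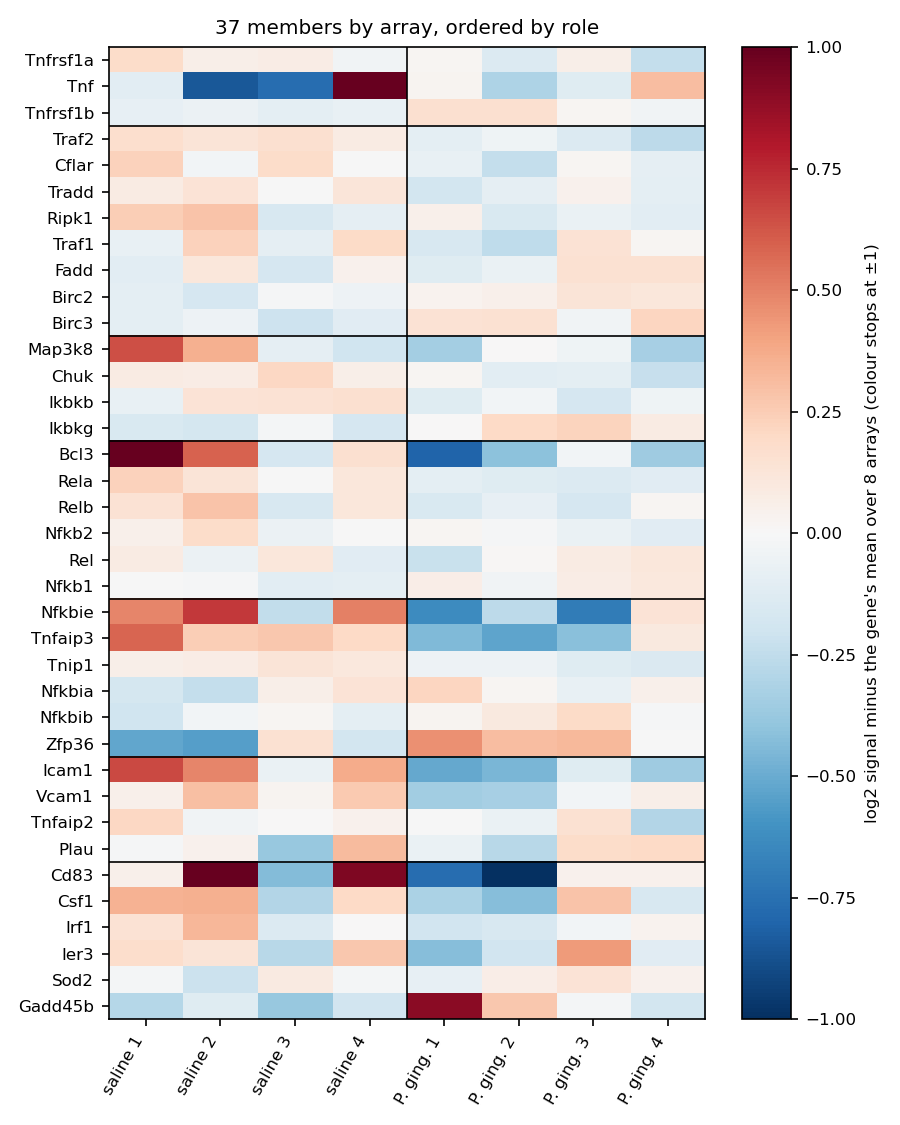
Deviation of each of the 37 tested genes from its mean over 8 arrays (log2, colour from -1 in blue to 1 in red), with genes in rows by role and arrays in columns. Saline 2 has the highest value for 10 genes and P. gingivalis 1 the lowest for 8, and rows differ from one another in which arrays are high.

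Across the 37 genes the arrays of a group were not alike. Saline 2 held the highest value for 10 genes and saline 1 for 9, whereas saline 3 held it for 2 and had the lowest value for 7. P. gingivalis 1 had the lowest value for 8 genes, and P. gingivalis 2 the highest for 0. The median deviation of the members from their mean over 8 arrays was 0.057, 0.11, -0.057 and 0.062 in saline 1 to 4 and -0.085, -0.079, -0.017 and -0.013 in P. gingivalis 1 to 4. Saline 3 thus lay with the P. gingivalis arrays, and P. gingivalis 3 and 4 were the nearest to 0. The macrophage markers, 10 of whose 11 tested genes were lower in P. gingivalis (8 of 11 under median centring), deviated by 0.068, 0.74, -0.67 and 0.59 in saline 1 to 4 and -0.30, -0.63, 0.15 and 0.063 in P. gingivalis 1 to 4. Saline 3 and P. gingivalis 2 were lowest for these markers, and saline 2 and 4 were highest. Summed macrophage marker level ran over 14.6 to 44.8 in saline and 14.6 to 25.5 in P. gingivalis. Of the neutrophil markers, 7 of 8 tested were lower (5 under median centring), with S100a8 at -2.21 and S100a9 at -2.10, both named after their values were seen. The summed neutrophil marker level, 72.7 to 85.8 in saline and 60.2 to 75.1 in P. gingivalis, was almost wholly that of Csf3r. All 15 fibre markers were higher (9 under quantile normalization), and the summed level of the 14 with a value on every array ran over 4474 to 4968 in saline and 4931 to 5774 in P. gingivalis. All 4 red blood cell markers were higher under every scaling run, with a median of 0.62 and a summed level of 155 to 486 in saline and 331 to 529.5 in P. gingivalis, the lowest array being saline 3. Myh4, a fast myosin, was lowest in saline 1 and P. gingivalis 3, at 1.95, 7.63, 7.70 and 4.98 in saline 1 to 4 and 6.76, 7.66, 4.03 and 7.11 in P. gingivalis 1 to 4. Among the macrophage markers Fcgr1, and among the 10 neutrophil markers 2, did not pass the background filter. The part of these cell types in the members' differences was not tested. Without saline 1 and P. gingivalis 3, the arrays lowest in Myh4 and Actn3, 11 members were counted at the unadjusted threshold (13.8% of all genes) and the median was -0.15.

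**Figure D4:**
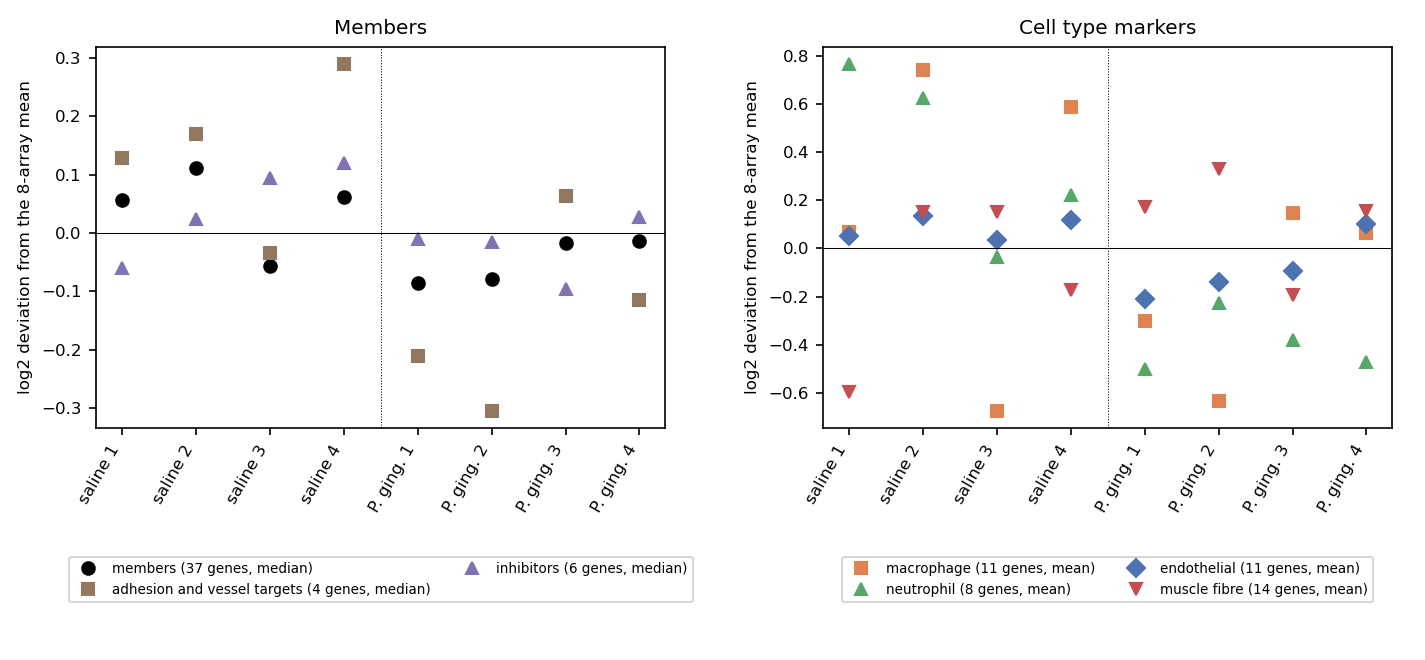
Median log2 deviation from the 8-array mean of all members, the adhesion and vessel targets and the inhibitors (left) and mean deviation of cell type marker lists (right) on each array. All members together stand at 0.11 in saline 2 and -0.057 in saline 3, and macrophage markers at 0.74 and -0.67 on the same arrays.

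Several probes for 1 gene allowed a check within the array. Of 23 members with over 1 kept probe, 11 had the same sign at every probe and 12 did not. A shared sign is not a shared difference. Among the 11, Traf2, Tnip1 and Tnfaip2 were near 0 at their other probes, at -0.00030, -0.0061 and -0.0095. The 11 also include Birc2, whose other probe gives no independent value. Among the 12, Ikbkb took the opposite sign only at its 0.61 probe, which gives no independent value either. When each kept probe was fitted on its own, 42 of the 70 member probes were lower and 28 higher. In that fit 0 member probes passed the adjusted threshold in limma, against 55 of 33748 probes (0.163%), and 20 of 70 were counted at the unadjusted threshold, against 20.6% of all probes. Of the 70, 12 were not well above background on all 8 arrays, 11 of them second or further probes of a gene, so a sign at those probes carries less. Csf1, Nfkbib, Traf2, Tnfaip2, Nfkb2 and Rel had the same sign at every kept probe, each well above background on all 8 arrays. Icam1, Map3k8 and Plau also had the same sign throughout, but with a second probe below that level on some arrays of both groups. Tnfaip3, Bcl3, Nfkbie, Vcam1, Zfp36, Cd83 and Gadd45b had 1 kept probe each.

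Other genes of the pathway were read from a list of 77, 63 of which could be tested. None passed the adjusted threshold in limma, and 14 (22.2%) were counted at the unadjusted threshold, beside 19.7% of all genes, 12 lower and 2 higher. Their median was -0.15, as for the members, with 47 lower and 16 higher, and turned to 0.0028 under median centring, with 31 lower and 32 higher. Of the further inducible targets 15 of 19 were lower (13 under median centring), of the ubiquitin, kinase and adaptor steps 15 of 19 (5 under median centring), and of the ligands and receptors of the TNF superfamily 6 of 12 (4 under median centring). The smallest p-values belonged to Tnfrsf10b, the TRAIL receptor, with a difference of -0.52 ± 0.10 (limma, adjusted p = 0.0714), Map3k7, which encodes the kinase TAK1 upstream of the IkB kinase, with -0.24 ± 0.055, and Traf3, the adaptor that holds down the alternative route, with -0.29 ± 0.069. Next were Ripk3, the kinase of necroptosis, with -0.59 ± 0.17, Nos2, the inducible nitric oxide synthase, with -0.32 ± 0.094, and Cxcl1, a neutrophil chemokine, with -1.57 ± 0.52.

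The authors' deposited table holds all 37 tested members and calls 0 of them at its adjusted p under 0.05, against 431 of its 28250 rows (1.53%). At its unadjusted p under 0.05 the authors' deposited table has 13 of the 37 members, against 22.3% of its rows. After the differences of the authors' deposited table were turned to the sample records, 21 members were lower and 16 higher in P. gingivalis. So turned, the authors' deposited table gives -0.69 for Icam1, -0.47 for Tnfaip3, -0.34 for Nfkbie, -0.74 for Bcl3 and 0.46 for Zfp36.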

How the data were processed

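Gene expression was measured in 8 soleus samples, 4 per group, on 1 Agilent slide read in 1 scan. The deposited spot intensity values came from Agilent Feature Extraction 11.0.1.1 per the file headers, with version 11.1 in the submitters' processing notes, and are background-subtracted processed signals. Probe positions refer to mm9 per the file headers. The authors' deposited table gives log2 values and p-values, and its t and B columns, each a score per the file headers, were not used. How the authors normalized that table is not given in the sources used here. Its columns were compared with the arrays over shared probes.

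From the intensities, log2 of the processed signal minus the array's 75th percentile was computed. Control spots were left out, outlier flags removed values of 466 probes on at least 1 array, and spots of a probe were averaged. A probe was kept if well above background on at least 4 arrays (33748 of 56605 probes), and the brightest kept probe, by its mean over the arrays, stood for a gene. Genes were named by RefSeq accession or symbol in a GRCm38.p6 table used for names and promoter sequences. Array 75th percentiles of signal lay between 649 and 764, lowest in P. gingivalis 2, the 1 array that the software marked for evaluation. Array correlations were 0.989 to 0.995 within groups and 0.989 to 0.992 between groups. The number of arrays limits the precision.

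The 2 groups were tested in R 4.3.3 by limma 3.58.1 (lmFit, then eBayes, two-sided, no covariate), with Benjamini-Hochberg adjustment over 22271 genes, after the code had been tested on simulated data. The 40 genes, the roles and all lists were chosen with earlier results of these data known. Named are all members and, of the other pathway genes, those with an adjusted p under 0.05 and then the 6 with the smallest p. Marker lists have at most 3 genes named each. The fit was repeated with normexp background correction, quantile or median scaling, stricter or no filtering of dim probes, the mean of a gene's probes, a replicate block, other variance models, array weights, the deposited table, and every array omitted in turn. Leaving out 2 arrays together and fitting every probe were chosen after seeing the data.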

Additional observations from a re-analysis of the deposited data

Results flagged for a closer look

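In a test of the highest and lowest array of each group of 4 by Dixon's ratio, 2 member values stood apart from the other 3 of their group. Such flags arise by chance in about 1 in 20 groups, and 80 groups were tested. Ikbkb was at 0.088 in saline 1, against 0.31 to 0.33 in the other saline arrays. Chuk was at 2.73 in saline 3, against 2.58 to 2.60 in the others.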

How the results depend on the processing

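Of 702 values of single members under the alternatives, 656 kept their sign and their side of the adjusted threshold, 13 kept their sign and passed it, and 33 took the other sign. No value of 23 of the 37 members turned. The count of all genes past the threshold was 455 with normexp background correction, 210 with quantile normalization and 2384 under median centring. A filter that asked for all 8 arrays gave 261. With no filter on dim probes the count was 5160, of which 511 were higher and 4649 lower. It was 9 with the mean of all kept probes, 559 with trended and robust variances and 192 with array weights. Without saline 1 and P. gingivalis 3 together it was 0, and with single arrays left out 2 to 7. The authors' deposited table had 431 rows past it, which is not a count of genes. Counted by gene, with the brightest row of each, it had 237 higher and 93 lower. Median centring also moved the split, with 2288 genes higher and 96 lower in place of 8 and 18. Members past the threshold numbered 2 with normexp (Icam1 and Tnfaip3), 1 with quantile normalization (Birc3), 5 under median centring (Birc2, Birc3, Ikbkg, Nfkb1 and Tnfrsf1b), 3 with no filter (Icam1, Tnfaip3 and Traf2) and 2 with trended and robust variances (Icam1 and Traf2), and 0 under each other alternative run. Over its alternatives the adjusted p ran from 0.0289 to 0.237 for Icam1, 0.0343 to 0.309 for Tnfaip3, 0.0419 to 0.305 for Traf2 and 0.0241 to 0.529 for Birc3. Other pathway genes past it numbered 1 with normexp, 2 under median centring, 1 with the 8-array filter, 4 with no filter, 3 with trended and robust variances and 1 in the authors' deposited table. Members at the unadjusted threshold numbered 9 with the mean of all kept probes (18.4% of all genes), 13 under median centring (32.6%) and 11 to 19 with single arrays left out (15.9% to 20.8%). Those without overlap numbered 2 (12.4%), 7 (23.2%) and 10 to 17 (16.8% to 20.9%) under the same alternatives. The authors' deposited table was not used for overlap. The member median was -0.058 with the mean of all kept probes, -0.056 in the authors' deposited table and 0.0032 under median centring, where the median of all genes was 0.14, and -0.17 to -0.12 with single arrays left out.

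Deviations of same-numbered arrays correlated at 0.065, -0.058, -0.041 and 0.23, and 2 of 4 saline arrays correlated best with their own number. These values do not settle whether the replicate number pairs the samples, since same-numbered arrays also shared a row of the slide. With the number as a replicate block, 0 genes and 0 members passed in limma. At the unadjusted threshold 15 members were counted, beside 19.9% of all genes.

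Signs turned as follows. Median centring moved the difference of every gene by the same amount. The member median minus that of all genes was -0.13 both under it and at the main scaling. In the other fits from 1 probe per gene, the brightest kept probe was chosen anew. A gene's value there can thus come from another probe than in the main fit, as described for Birc3. Beyond this, the cause was not tested for the other alternatives. With normexp, Birc3 was at -1.10 and Rel at 0.016. With quantile normalization, Traf1 was at 0.012, Rel at 0.00043 and Plau at -0.0020. Under median centring, Tnf was at 0.10, Tnfrsf1a at 0.0032, Traf1 at 0.025, Ripk1 at 0.0091, Tnfaip2 at 0.042, Nfkb2 at 0.062 and Rel at 0.14. With the mean of all kept probes, Cflar was at 0.012, Birc3 at -0.51, Nfkb1 at -0.00064, Ikbkb at 0.024 and Irf1 at 0.0013. Array weights put Rel at 0.0055 and Plau at -0.034. With single arrays left out, Rel ran from -0.050 to 0.063, Plau from -0.10 to 0.13 and Tnf from -0.33 to 0.55. Without saline 1 and P. gingivalis 3, Fadd was at -0.0087 and Plau at -0.041. In the authors' deposited table, turned, Tnfrsf1a was at 0.0044, Ripk1 at 0.095, Cflar at 0.083 and Irf1 at 0.015. Signal over background limits Il1b, Ptgs2, Sele and Nfkbie, whose probes were dim on some or all arrays.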
